A study of Mus musculus with 24 samples.

Results

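Mitochondrial ribosomal protein genes are the nuclear genes named Mrpl or Mrps followed by a number and, in some, a letter. They were taken from the gene count table by that pattern of symbols, which found 77 of 45706 rows. All 77 passed the filter on low counts and were tested. They lie on 17 chromosomes. The name Mrps36 is covered by the pattern although its protein is known as a part of the oxoglutarate dehydrogenase complex and not of the mature ribosome. By the structure of the mammalian mitochondrial ribosome, 50 members belong to the large subunit, among them Mrps18a and Mrps30 despite their names, and 26 to the small subunit.

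The libraries are poly(A) RNA of the whole hypothalamus of male mice with diet-induced obesity, double-housed and with a mean body weight of 53 g. The labels give 3 groups of 8 libraries, called saline, PSD-95i and PICK1i, and no strain or age. The PSD-95i group received UCCB01-147 (25 mg/kg), which blocks PSD-95, a scaffold of excitatory synapses. The PICK1i group received mPD5 (56 mg/kg), which blocks PICK1, a protein that carries AMPA receptors to and from the synapse. The protocol names compounds and the labels name targets, and their pairing here rests on general knowledge of both drugs. All mice, controls included, were obese and received an injection a day for 5 days, the last of them 2 h before tissue was taken. The protocol lists 6 saline mice where the labels list 8 saline libraries, and all 8 were used. No label says which mouse a library came from, so p-values measure the spread between these libraries.

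Mitochondria keep a ribosome of their own, which makes the few proteins that mitochondrial DNA encodes, all of them subunits of the respiratory chain and ATP synthase. Its rRNAs come from mitochondrial DNA, while its proteins are encoded in the nucleus, made in the cytosol and imported. The small subunit binds the mRNA and reads it, and the large subunit joins the amino acids and passes the nascent chain through an exit tunnel to the inner membrane. In the brain, neurons rely on oxidative phosphorylation for most of their ATP, and inherited defects of several of these proteins affect the nervous system.

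The libraries held 4762697 to 9228843 estimated counts (median 7628246). CPM here is the share of counts in tested genes on the usual CPM scale, with totals scaled by the trimmed mean of M values (TMM). Some libraries stood apart. Saline replicates 2 and 3 held 52000 and 32100 CPM of the growth hormone gene Gh, against at most 40.9 CPM in the other 22 libraries, and the summed level of 8 anterior pituitary markers there was 38900 to 62700 CPM against 0.123 to 18.2 CPM in the other 6 saline libraries. PICK1i replicates 1, 2, 5 and 6 had 13.47 to 16.61% of their counts in mitochondrially encoded genes, against 8.7 to 11.17% in the other 4 PICK1i libraries. They also had a length tilt of -0.172 to -0.095, against -0.024 to 0.07, where length tilt is the slope of a library's log2 deviations on log2 transcript length over genes that are not members. Of the hypothalamic markers 13 of 13 were detected in every group, which does not mean equal levels. Their sum was 14700 to 17900 CPM in saline replicates 2 and 3 and 1280 to 1850 CPM in the other 6 saline libraries. It was 1240 to 1690 CPM in PSD-95i and 1370 to 2050 CPM in PICK1i. Counts and medians of the members are given with and without these libraries, and single values with all libraries unless stated.

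Across the hypothalamus the members were expressed at similar levels per length. In saline the median level was 44.5 TPM (a level per length, from estimated counts divided by annotated transcript length), with an interquartile range of 31.2 to 62 TPM, and 61 of 77 members lay within 2-fold of the median. The median was 50.4 TPM for the large subunit and 38.9 TPM for the small subunit. Mrps21, the partner of the bacterial small subunit protein bS21, had the highest level, 151 ± 12.3 TPM (SD, n = 8). Next came the large subunit genes Mrpl41 at 131 ± 13.3 TPM, Mrpl20 at 118 ± 9.58 TPM, Mrpl52 at 116 ± 13 TPM and Mrpl38 at 112 ± 10 TPM. The last 3 did not differ beyond their spread. At the other end stood Mrps16 at 11.9 ± 1.1 TPM and Mrps30 at 11.8 ± 0.792 TPM, then Mrps35 at 9.16 ± 2.34 TPM and Mrpl47 at 8.94 ± 0.952 TPM, each pair closer together than its SDs. Mrpl53 was lowest, at 3.84 ± 2.59 TPM. It shares 695 exonic bases with Gm42688 on the same strand, so its level is uncertain.

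**Figure D1:**
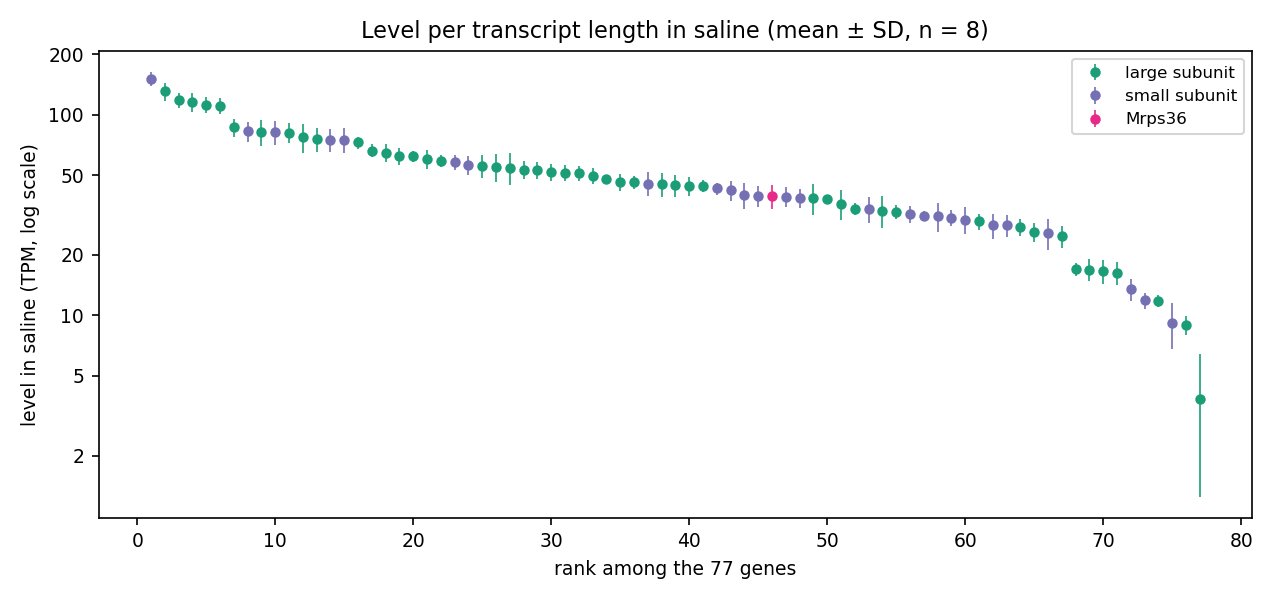
Level per transcript length of the 77 genes in saline, ranked (x axis, rank; y axis, TPM on a log scale; points, mean of 8 libraries; bars, SD; colours, subunit). Genes of both subunits run from over 100 TPM down to about 10 TPM, and Mrpl53 lies below all others.

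The comparison of PICK1i with saline asks which of these genes differ in the hypothalamus after inhibition of PICK1. Of 77 members 18 rose and 0 fell (23.4% higher, edgeR adjusted p under 0.05), where 4.88% of all 15667 genes tested were higher and 4.27% lower. The median log2 fold change of the members was 0.17 (interquartile range 0.12 to 0.25), against -0.01 over all genes tested, and 71 of 77 members were above 0. At an unadjusted p under 0.05, 44 members were higher and 0 lower, while 14% of all genes were higher and 14.8% lower. For 0 members did the groups not overlap at all, where 0.0957% of all genes lay wholly higher. Both subunits took part, with 12 of 50 large subunit genes (median 0.17) and 5 of 26 small subunit genes (median 0.17) higher, and the last called gene was Mrps36. Members with a counterpart in the bacterial ribosome (11 of 46 higher) and members found only in mitochondria (6 of 30 higher) both had a median of 0.17. In whole tissue, a different share of a cell type and a different amount of RNA per cell cannot be told apart.

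The count rested on some libraries. The members' mean log2 deviation from the mean of all libraries was 0.16 to 0.29 in the 4 PICK1i libraries with the highest mitochondrial share (replicates 1, 2, 5 and 6). It was -0.07 to 0.05 in the remaining PICK1i libraries, while saline ran from -0.13 to 0 and PSD-95i from -0.14 to 0.03. Without those 4 PICK1i libraries 0 members passed the edgeR test, as did 0% of all genes, and the members' median was 0.07. At an unadjusted p under 0.05, 8 members were higher and 0 lower, where 834 of 16121 genes were higher and 1127 lower. Without saline replicates 2 and 3, 36 members were higher and 0 lower at an unadjusted p under 0.05, where 1876 of 15820 genes were higher and 1963 lower. The count of members that passed was also 0 (adjusted p of 0.054 or more), with a median of 0.16, and 0.0253% of all genes were higher. It was 0 as well when only the saline and PICK1i libraries were fitted (36 higher at an unadjusted p under 0.05, 0% of all genes called), 1 with 2 surrogate variables (0.613% of all genes higher), and 2 by limma-voom with neighbouring sample numbers as a random block (1.27%). Each such pair of sample numbers lies within 1 group. PICK1i replicates 1 and 2 are numbers 1 and 2, and replicates 5 and 6 are numbers 13 and 14. The mice were double-housed, and no label says whether a pair shared a cage or a processing step. If it did, these 4 libraries are fewer than 4 independent units, and the main fit treats them as independent. With 1 library left out the count was 3 without PICK1i replicate 5, 7 without replicate 6, 8 without replicate 1, 10 without replicate 2 and 32 without replicate 7, and it was 6, 10 and 10 without saline replicates 2, 3 and 4. The share of all genes that were higher moved too, from 1.26% without PICK1i replicate 5 to 8% without replicate 7. The 4 oligodendrocyte markers summed to 6200 to 9310 CPM in PICK1i replicates 1, 2, 5 and 6, against 4720 to 7050 CPM in the other 4, 4700 to 6690 CPM in the 6 other saline libraries and 2620 to 3520 CPM in saline replicates 2 and 3. The 5 neuron markers summed to 2790 to 4300 CPM, 3040 to 3230 CPM, 2740 to 3040 CPM and 2050 to 2290 CPM in the same order, and the 8 pituitary markers to at most 13 CPM in PICK1i, with Pou1f1 at 0. The 4 astrocyte markers summed to 710 to 859 CPM in PICK1i replicates 1, 2, 5 and 6 and 764 to 926 CPM in the other 4. They summed to 838 to 1070 CPM in the 6 other saline libraries and 573 to 647 CPM in saline replicates 2 and 3. In PICK1i replicates 1, 2, 5 and 6 the highest sums were 48.8 CPM for cortex and hippocampus, 1840 CPM for red blood cells and 19.7 CPM for muscle and fat, against at most 11.3, 1050 and 6.9 CPM in saline. The medians were 6.44, 355 and 7.03 CPM, against 6.12, 579 and 4.15 CPM in saline. In these 4 libraries and in saline, leptomeningeal markers summed to 6.76 to 28.5 and 10.9 to 83 CPM. Microglial markers summed to 118 to 152 and 109 to 169 CPM, and endothelial markers to 85.7 to 175 and 80.7 to 150 CPM. Tanycyte and ependymal markers summed to 27.3 to 123 and 74.5 to 150 CPM. The part of these differences in the result was not tested.

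**Figure D2:**
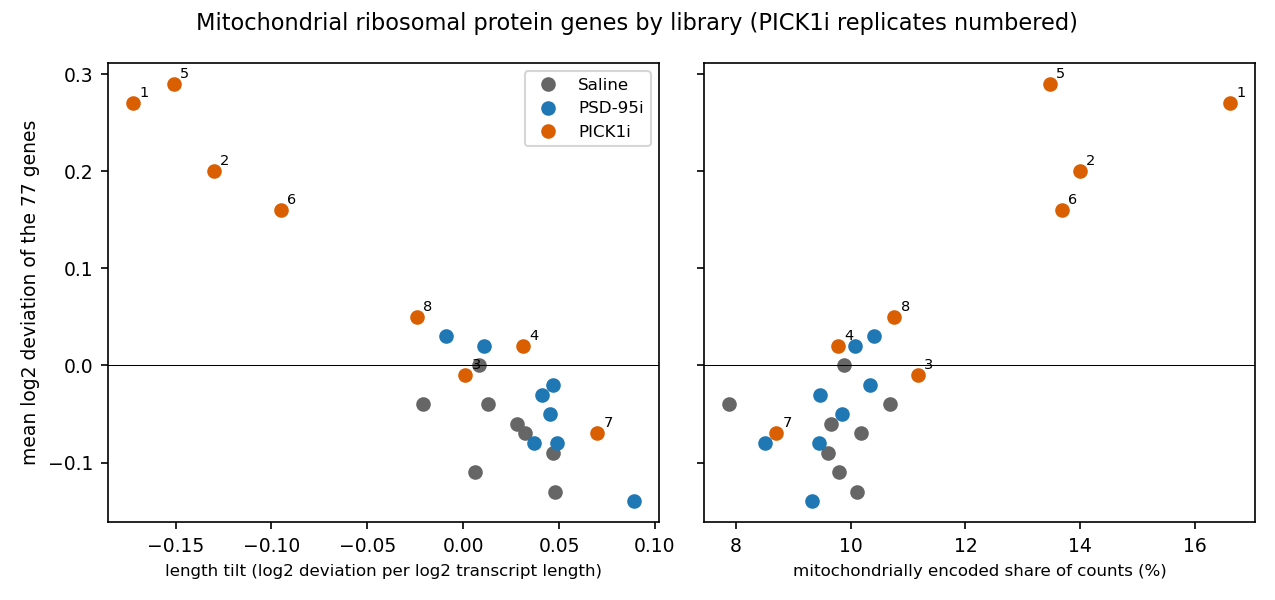
Mean log2 deviation of the 77 genes in each of 24 libraries (y axis) against length tilt (left, log2 deviation per log2 transcript length) and the mitochondrially encoded share of counts in percent (right). PICK1i replicates 1, 2, 5 and 6 stand at the top of both panels at 0.16 to 0.29, and the other PICK1i libraries overlap with saline and PSD-95i.

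Among large subunit genes with a bacterial counterpart, Mrpl15 had the smallest p. Its protein is uL15m, which lies in the core of the subunit. Its level in saline ran from 25.2 to 33 CPM (median 29.4 CPM) and in PICK1i from 32.8 to 41.2 CPM (median 37.4 CPM). The groups touched only at their ends, and 8 of 8 PICK1i libraries were above the saline median. Mrpl15 rose by 0.30 ± 0.07 on the log2 scale (SE, edgeR adjusted p = 0.0191). PSD-95i libraries overlapped with both groups, at 26.1 to 37.1 CPM. Mrpl27, the partner of a protein near the bacterial peptidyl transferase centre, held 23.1 to 30.7 CPM in saline (median 27.3 CPM) and 25.8 to 40.2 CPM in PICK1i (median 32.5 CPM), and rose by 0.32 ± 0.08 (adjusted p = 0.0246). Mrpl21 held 14.7 to 19 CPM in saline (median 16.7 CPM) and 15.3 to 25.7 CPM in PICK1i (median 21.5 CPM), and rose by 0.34 ± 0.10 (adjusted p = 0.0377). In both genes the groups overlapped, and 7 of 8 PICK1i libraries were above the saline median. Mrpl32, whose protein is cut to its mature form by the m-AAA protease of the inner membrane, rose by 0.26 ± 0.08 from a saline median of 15.6 CPM to 19.5 CPM (adjusted p = 0.0414). Mrpl36, a small zinc-binding protein gene, rose by 0.32 ± 0.10 from a median of 15.9 CPM to 20.5 CPM (adjusted p = 0.0474), and Mrpl55 by 0.31 ± 0.09 from 20.5 CPM to 24.5 CPM (adjusted p = 0.0383).

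The stalk of the large subunit, built on Mrpl10 and Mrpl11 with copies of Mrpl12, is the place where translation factors dock. Mrpl12 held 33.5 to 50 CPM in saline (median 46.9 CPM) and 45.5 to 69.5 CPM in PICK1i (median 56.8 CPM). Its lowest saline libraries were replicates 3 and 2, at 33.5 and 39.4 CPM, and PICK1i replicates 1 and 5 were highest, at 69.5 and 63.9 CPM. Mrpl12 rose by 0.33 ± 0.08 (adjusted p = 0.0234), with overlapping groups. Mrpl11 held 40.3 to 50.7 CPM in saline (median 46.4 CPM) and 46.6 to 61.2 CPM in PICK1i (median 53.5 CPM), and rose by 0.20 ± 0.06 (adjusted p = 0.0474). Mrpl10, the base of the stalk, did not pass, with 0.07 ± 0.06 (adjusted p = 0.385) and medians of 50.3 and 51.1 CPM. The difference between Mrpl10 and the other stalk genes was not tested.

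Large subunit genes without a bacterial counterpart were led by Mrpl41. In saline it held 41.5 to 52 CPM (median 48.3 CPM) and in PICK1i 45.7 to 77.3 CPM (median 58.8 CPM). PICK1i replicates 5 and 1 were highest, at 77.3 and 74.6 CPM, and PICK1i replicate 7, at 45.7 CPM, lay within the saline range. Mrpl41 rose by 0.34 ± 0.08 (adjusted p = 0.0191). Mrpl42 rose by 0.27 ± 0.07 (adjusted p = 0.0267) from a median of 39.2 CPM to 45.4 CPM. Mrpl38 rose by 0.21 ± 0.06 (adjusted p = 0.0282) from 67.3 CPM to 79 CPM, and Mrpl46 by 0.26 ± 0.08 (adjusted p = 0.0437) from 23.3 CPM to 26.8 CPM. These genes had overlapping groups, with at least 7 of 8 PICK1i libraries above the saline median. Mrpl46 lies back to back with Mrps11 and shares 173 exonic bases with it on the other strand, and whether counting used strand is not given in the sources used here. The members just outside the threshold, Mrpl28 at 0.22 ± 0.07 and Mrpl30 at 0.24 ± 0.08, had adjusted p of 0.0571 and 0.0572.

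In the small subunit Mrps34, whose protein is needed for a stable subunit, held 21.1 to 26.5 CPM in saline (median 23.2 CPM) and 23.9 to 35.5 CPM in PICK1i (median 30.5 CPM). PICK1i replicates 6 and 8 were highest, at 35.5 and 34.8 CPM, and replicates 7 and 4 lowest, at 23.9 and 24.8 CPM, inside the saline range. Mrps34 rose by 0.33 ± 0.08 (adjusted p = 0.0191). It shares 763 exonic bases with Nme3 on the same strand, so its counts are uncertain. Mrps25 held 53.1 to 66.9 CPM in saline (median 62.2 CPM) and 65 to 78.9 CPM in PICK1i (median 69.6 CPM), and rose by 0.22 ± 0.06 (adjusted p = 0.0225). Only PICK1i replicates 4 and 6, at 65 and 66.3 CPM, were within the saline range. It has the longest transcript of all members, 5698 bases, of which 4590 exonic bases are shared with Nr2c2 on the opposite strand. Mrps14 rose by 0.29 ± 0.09 from a median of 21.6 CPM to 25.7 CPM (adjusted p = 0.0373), and Mrps15, the partner of an rRNA-binding protein of bacteria, by 0.25 ± 0.08 from 37.1 CPM to 43.2 CPM (adjusted p = 0.0416). All 26 small subunit genes were above 0.

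The bacterial protein S18 has 3 paralogues in mammals, of which Mrps18c and Mrps18b sit in the small subunit and Mrps18a in the large. Mrps18c held 10.9 to 13.6 CPM in saline (median 11.8 CPM) and 12.9 to 19.9 CPM in PICK1i (median 16.4 CPM). Its PICK1i replicates 1, 2, 4, 5, 6 and 8 stood at 13.8 to 19.9 CPM, above every saline library, while replicates 3 and 7 stood at 12.9 and 13.3 CPM. Mrps18c rose by 0.41 ± 0.10 (adjusted p = 0.0214). It shares 250 exonic bases with Gm43511 on the same strand, so its counts are uncertain. Mrps18a was at 0.17 ± 0.08 (adjusted p = 0.154) and Mrps18b at 0.12 ± 0.10 (adjusted p = 0.413), and the difference between the paralogues was not tested. Mrps36, the dehydrogenase component, held 11 to 15.6 CPM in saline (median 12 CPM) and 14 to 20.6 CPM in PICK1i (median 16.8 CPM), and rose by 0.42 ± 0.11 (adjusted p = 0.0235). Processed pseudogenes of Mrps36 are listed under names of their own and held at most 156 counts over all libraries.

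**Figure D3:**
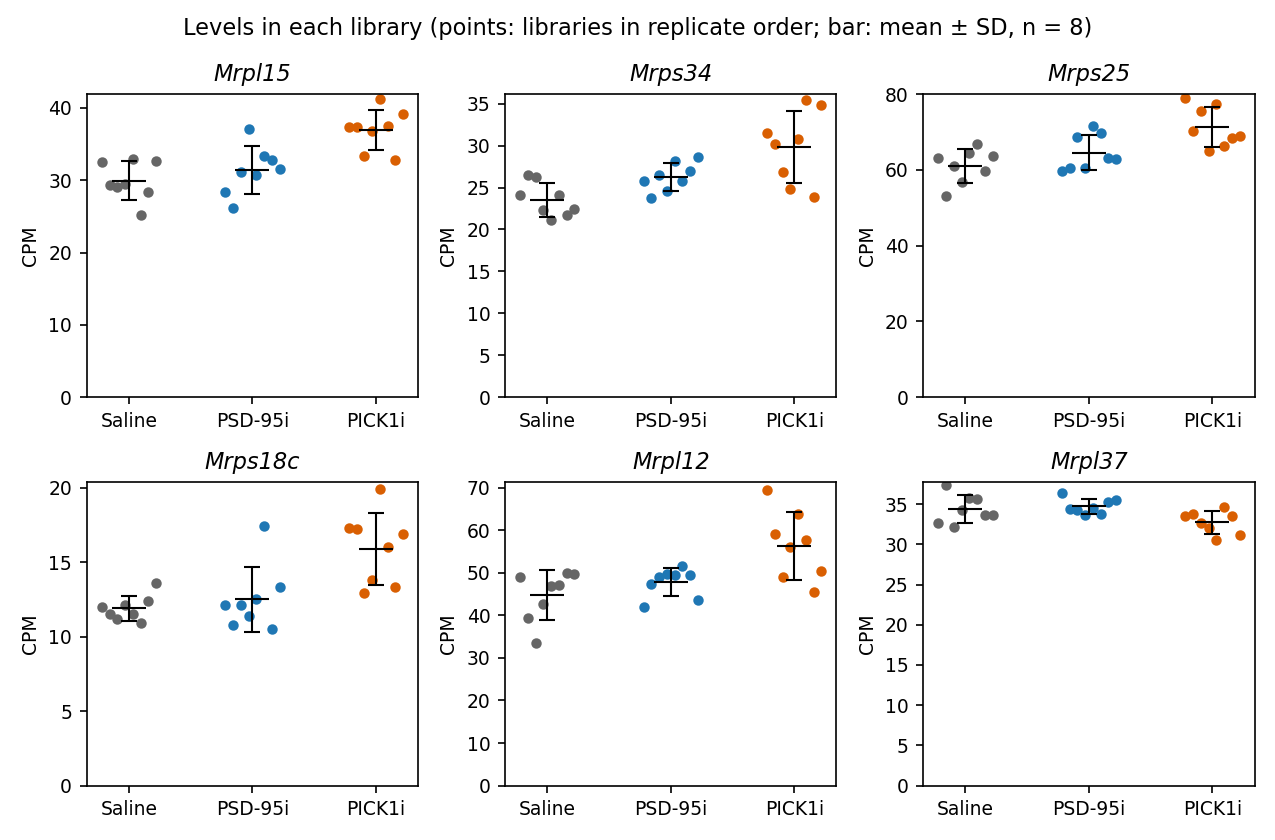
CPM of 6 members in each library (x axis, group; y axis, CPM from 0; points, libraries in replicate order; bar, mean ± SD, n = 8). Mrpl15, Mrps34, Mrps25, Mrps18c and Mrpl12 are shifted upward in PICK1i with overlap at the ends, and Mrpl37 lies at 30.5 to 37.4 CPM in saline and PICK1i.

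Genes around the exit tunnel gave mixed values. The tunnel genes Mrpl22 (0.08 ± 0.10), Mrpl23 (0.34 ± 0.13) and Mrpl24 (0.03 ± 0.09) had adjusted p of 0.616, 0.0847 and 0.849. Mrpl45, whose protein anchors the ribosome to the inner membrane, was at 0.17 ± 0.08 (adjusted p = 0.157). None of the 4 passed. Of 77 members 6 were below 0, all of the large subunit and none called. They were Mrpl37 (-0.07 ± 0.05), Mrpl50 (-0.07 ± 0.06), Mrpl1 (-0.07 ± 0.08), Mrpl33 (-0.07 ± 0.09), Mrpl3 (-0.03 ± 0.06) and Mrpl17 (-0.01 ± 0.07). Mrpl37, which had the smallest adjusted p of them (0.276), held 32.1 to 37.4 CPM in saline and 30.5 to 34.6 CPM in PICK1i. Its groups overlapped from 32.1 to 34.6 CPM. The abundant genes Mrpl20 (0.23 ± 0.08), Mrpl52 (0.31 ± 0.12) and Mrps21 (0.19 ± 0.10) had adjusted p of 0.0719, 0.082 and 0.23. Mrpl53 had the highest fold change, 0.87 ± 0.35 (adjusted p = 0.101), at medians of 1.11 CPM in saline and 2.86 CPM in PICK1i.

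**Figure D4:**
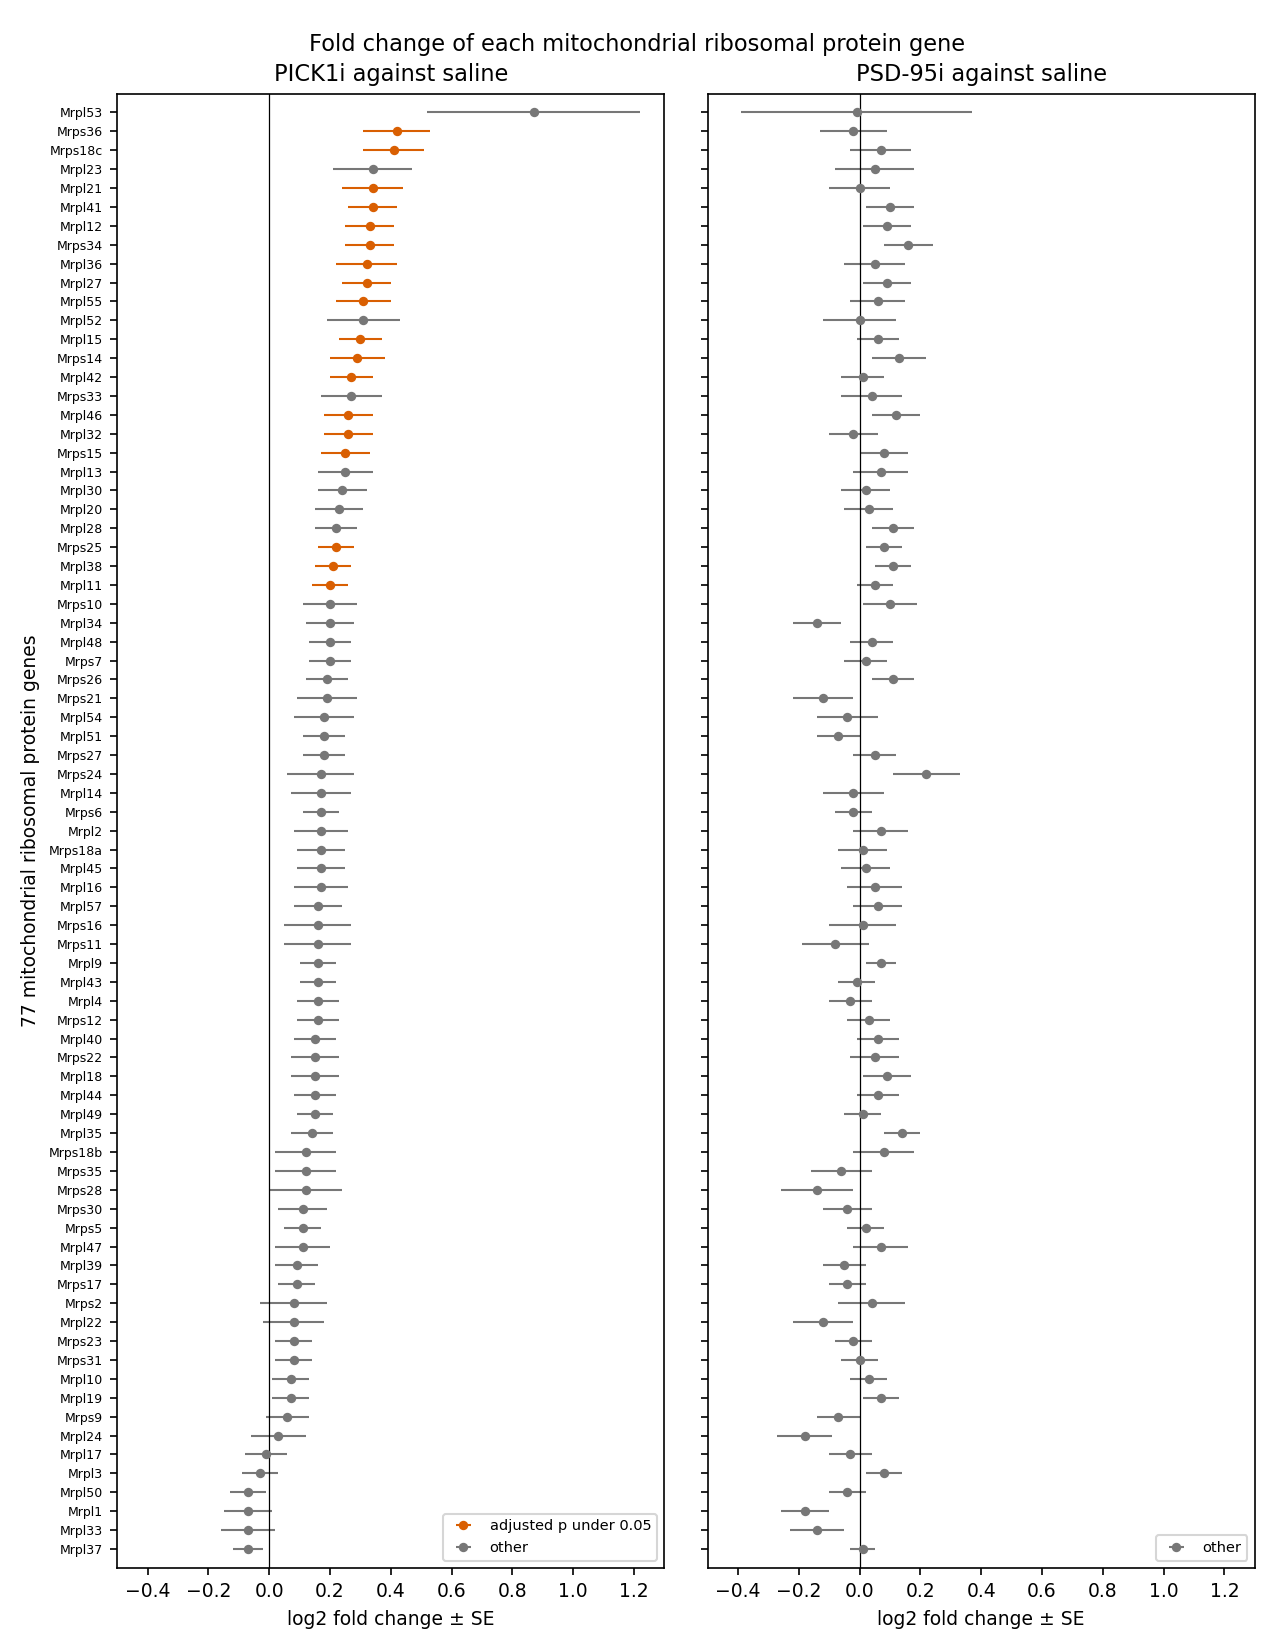
Log2 fold change (x axis, points) with its standard error (bars) of each of the 77 genes in PICK1i (left) and PSD-95i (right) against saline. On the left 71 genes lie above 0 and 18 are called, and on the right 52 lie above 0 and 0 are called.

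The 18 called members stayed above 0 without the libraries that stood apart. Without PICK1i replicates 1, 2, 5 and 6 all 18 were smaller, with a median of 0.16 in place of 0.30, and ran from 0.07 for Mrps15 to 0.25 for Mrps18c. Mrpl15 was at 0.24, Mrps34 at 0.23, Mrpl41 at 0.13, Mrpl42 at 0.10 and Mrpl55 at 0.08. None passed there (smallest adjusted p over all members 0.367). Without saline replicates 2 and 3 the median was 0.28, and 15 of 18 were smaller, while Mrps34 was at 0.38 and Mrpl32 at 0.30. The remaining libraries helped to choose these genes, so their direction adds no separate support.

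Fold changes varied with transcript length. The members are short, with a median of 1187 bases against 2763 bases for all genes tested, and Spearman's rho of length with log2 fold change was -0.49 over the 77 members and -0.36 over all genes with a length. Of 30 members under 1000 bases 10 rose (median 0.23), of 23 from 1000 to 2000 bases 4 rose (0.16), and of 24 with 2000 bases or more 4 rose (0.13). Among all genes tested the same bins gave 11.9% higher (median 0.16), 8.92% (0.07) and 2.6% (-0.05). With length tilt as a covariate 0 members passed edgeR (10 higher and 2 lower at an unadjusted p under 0.05), with a median of 0.09 and a smallest adjusted p of 0.144, and 0.00638% of all genes were higher. With an offset for length and GC content in each library 12 members were higher, 8 of them among the 18, and 3.06% of all genes. Genes are not independent replicates, and these values describe the libraries.

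**Figure D5:**
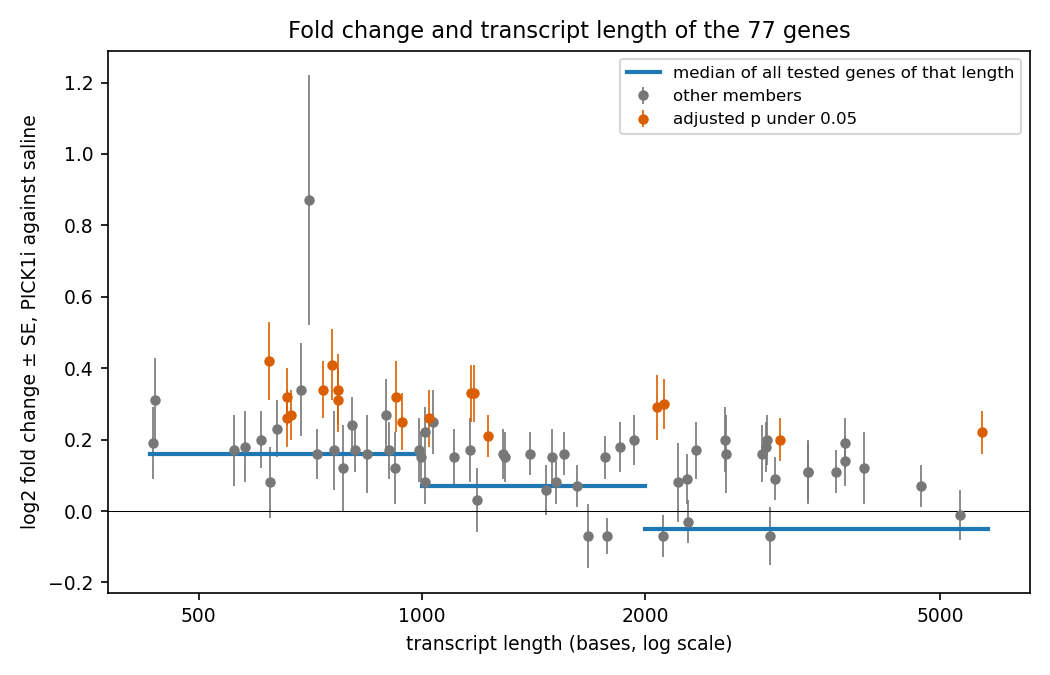
Log2 fold change in PICK1i against saline (y axis, with SE) and transcript length in bases (x axis, log scale) of the 77 genes. Most members lie above the horizontal lines, which give the median of all tested genes of that length (0.16, 0.07 and -0.05).

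Promoter windows were examined because most members lay on the same side of 0. RefSeq windows from 250 bases before to 50 after the start (GRCm38.p6) were found for 68 of 77 members. The ETS motif CCGGAAG, on either strand, was in 25 of 68 members (36.8%) against 9.93% of 27025 genes. These genes outnumber the 15667 tested here and so include untested ones, while every member was tested. No share among tested genes only is given. The YY1 motif AAGATGGCG was in 8 members (11.8% against 1.64%) and the NRF1 motif GCGCATGCGC, which reads the same on both strands, in 3 (4.41% against 1.07%). Any of them was in 34 of 68 members, against 12.1% of all genes. The last letters of the ETS motif, AAG, can also be the first of the YY1 motif, so both can share bases. ETS family factors, YY1 and NRF1 are known as regulators of nuclear genes for mitochondrial proteins. Of the 15 called members with a window, 3 held the ETS motif (20%), 1 the NRF1 motif (6.67%) and 2 the YY1 motif (13.3%). A match describes letters in a window and not binding.

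The 4 called members whose motif lies before the start are shown with their 250 upstream bases, 5′ to 3′ on the strand of the gene, with the motif in capitals. They show that called members carry different motifs at different places. Mrps18c (chr5:100798509-100798758, plus strand) has the ETS motif on the opposite strand from base -156, Mrpl27 (chr11:94653541-94653790, plus strand) the ETS motif from -55, Mrpl32 (chr13:14613038-14613287, minus strand) the NRF1 motif from -87, and Mrpl36 (chr13:73330759-73331008, plus strand) the YY1 motif on the opposite strand from -31.
Mrps18c: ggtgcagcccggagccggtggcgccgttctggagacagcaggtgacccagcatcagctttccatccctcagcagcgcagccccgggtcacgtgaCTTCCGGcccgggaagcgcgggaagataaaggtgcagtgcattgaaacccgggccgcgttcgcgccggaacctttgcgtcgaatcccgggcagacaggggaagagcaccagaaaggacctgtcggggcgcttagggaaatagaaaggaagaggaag
Mrpl27: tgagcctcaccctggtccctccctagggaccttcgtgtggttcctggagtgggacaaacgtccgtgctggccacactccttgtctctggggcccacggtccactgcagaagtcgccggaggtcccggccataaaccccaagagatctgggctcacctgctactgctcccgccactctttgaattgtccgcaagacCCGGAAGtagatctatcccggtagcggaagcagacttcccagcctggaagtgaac
Mrpl32: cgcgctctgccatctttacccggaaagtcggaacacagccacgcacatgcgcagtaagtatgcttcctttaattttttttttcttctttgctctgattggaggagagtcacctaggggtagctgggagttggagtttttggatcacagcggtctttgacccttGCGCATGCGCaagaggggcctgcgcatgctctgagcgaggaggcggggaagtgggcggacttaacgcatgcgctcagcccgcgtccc
Mrpl36: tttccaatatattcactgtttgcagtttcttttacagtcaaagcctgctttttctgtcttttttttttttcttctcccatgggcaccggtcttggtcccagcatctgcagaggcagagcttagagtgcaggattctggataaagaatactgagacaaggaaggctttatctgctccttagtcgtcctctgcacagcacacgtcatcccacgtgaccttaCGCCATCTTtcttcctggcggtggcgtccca
Mrpl21 (ETS from base 8) and Mrpl42 (YY1 from base 28) have theirs after the start. Starts of these windows are those of RefSeq. In GENCODE M21 the gene Mrpl36 spans chr13:73328513-73332178, so the bases shown for it lie inside that gene. The back-to-back pairs below use the M21 starts.

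Many members share their promoter region with a gene on the other strand. In 23 pairs the starts of a member and a protein-coding neighbour lay back to back, within 1000 bases or overlapping by at most 300 bases. Of 21 neighbours tested 1 rose, Gga3 next to Mrps7 (0.17, adjusted p = 0.0437), and 0 fell. Over all genes tested the shares were 4.88% higher and 4.27% lower. The neighbours' median was 0.08 and that of the members in pairs 0.18, both over the 21 pairs with a tested neighbour. Of the members in pairs 7 of 23 were called, beside 23.4% of all members. Mrps18c and its neighbour Helq, a DNA helicase gene, have starts 29 bases apart and gave 0.41 and 0.05 (adjusted p of Helq 0.833). Mrpl32 gave 0.26 and its neighbour Psma2, a proteasome subunit gene, 0.13 (adjusted p = 0.163). Mrpl36 gave 0.32 and Ndufs6, a complex I subunit gene, 0.27 (adjusted p = 0.0733). Mrpl21 gave 0.34 and Ighmbp2 -0.01 (adjusted p = 0.99), and Mrps34 gave 0.33 and Eme2 0.17 (adjusted p = 0.122). Mrpl41 gave 0.34 and Pnpla7 0.08 (adjusted p = 0.574). The uncalled Mrpl30 gave 0.24, and its neighbour Mitd1 was on the other side of 0, at -0.29 (adjusted p = 0.281). The difference between a member and its neighbour was not tested.

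Other genes of mitochondrial translation were read from lists beside the same background of 4.88% higher. Of 6 mitochondrial ribosomal proteins without an Mrp symbol 3 rose, the small subunit genes Aurkaip1 (0.36 ± 0.10, adjusted p = 0.0267) and Dap3 (0.21 ± 0.06, 0.034) and the large subunit gene Gadd45gip1 (0.24 ± 0.07, 0.0329). Of 12 translation factor genes 0 passed edgeR (1 higher and 0 lower at an unadjusted p under 0.05), with a median of 0.06, where Oxa1l, the insertase that receives the nascent chain, was at 0.18 ± 0.07 (adjusted p = 0.0765) and Tufm, the elongation factor, at 0.14 ± 0.07 (0.186). Of 20 genes that charge mitochondrial tRNAs 2 rose, Aars2 (0.22) and Yars2 (0.27), and 1 fell, Ears2 (-0.35), with a median of -0.01. Of 24 assembly and rRNA modification genes 1 rose, Wbscr16, now named Rcc1l (0.35 ± 0.10, adjusted p = 0.0314), with a median of 0.07. Of 14 genes of mitochondrial transcription and mRNA handling 1 rose, Hsd17b10, a component of mitochondrial RNase P (0.30 ± 0.09, adjusted p = 0.0449), with a median of 0.03. Of 76 cytosolic ribosomal protein genes tested 1 rose, Rps15 (0.27, adjusted p = 0.0476), with a median of 0.12 and a median length of 749 bases. Of 36 complex I subunit genes 22 rose (median 0.29), with Ndufs5 at 0.46 and Ndufs7 at 0.51, and of 13 mitochondrially encoded mRNAs, the templates of this ribosome, 8 rose (median 0.38), with mt-Nd2 at 0.51 and mt-Nd4 at 0.45. The rRNAs mt-Rnr1 (0.43 ± 0.19) and mt-Rnr2 (0.47 ± 0.18), read here from poly(A) RNA, had adjusted p of 0.131 and 0.0968. These counts rested on the same libraries. Of the genes on these lists 0 passed edgeR without saline replicates 2 and 3 and 0 without PICK1i replicates 1, 2, 5 and 6, where, of complex I genes, 26 and 8 were higher and 0 lower at an unadjusted p under 0.05. In the same order, 1876 of 15820 and 834 of 16121 genes were higher at that unadjusted p. Without those 4 PICK1i libraries the medians were 0.10 for complex I, 0.06 for mitochondrial mRNAs, 0.10 for the 6 proteins without an Mrp symbol and -0.10 for cytosolic ribosomal proteins. Without saline replicates 2 and 3 the cytosolic median was 0.17, and that of the members 0.16. In that fit 35 of 76 cytosolic genes and 36 of 77 members were higher at an unadjusted p under 0.05, and 0 of either lower. How these lists differ from the members was not tested.

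Members varied together between libraries, with the 3 groups pooled. After group means were removed, the median Pearson correlation over 2926 pairs of members was 0.28 in 24 libraries, and 81.7% of pairs were above 0. The first principal component held 33.6% of the members' variance within groups. Of 77 members 42 had a correlation above 0.5 with the mean of the others, with Mrps33, Mrps16, Mrps15 and Mrpl48 highest at 0.83. Mrps31 (-0.34), Mrpl35 (-0.16), Mrps30 (-0.12) and Mrpl37 (-0.11) went the other way. Outside the members, Ttc1 (0.78), Egfl7 (0.73), Rnaseh2c (0.72), Cpsf3l (0.71) and Txn2 (0.70) were most like Mrpl15. All these correlations share the same libraries and their depth and length tilt. The SD of the members' mean deviation was 0.135 in PICK1i, 0.0563 in PSD-95i and 0.042 in saline, so PICK1i libraries weigh most in the correlations. No value for other genes of like length is given beside them.

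The comparison of PSD-95i with saline asks the same after inhibition of PSD-95, and it shares the saline libraries with the first. Of 77 members 0 passed edgeR (2 higher and 2 lower at an unadjusted p under 0.05), and DESeq2 and limma-voom also gave 0. Of all genes 0% passed, and 3.35% were higher and 7.62% lower at that unadjusted p. The members' median was 0.03 (interquartile range -0.02 to 0.07), against about 0 over all genes, and 52 of 77 were above 0. The smallest adjusted p was that of Mrpl1, whose protein forms a mobile stalk of the large subunit, at -0.18 ± 0.08 (0.419). Mrpl1 held 19.7 to 25.6 CPM in saline (median 23.3 CPM) and 17.7 to 22.3 CPM in PSD-95i (median 20.4 CPM). Its groups overlapped. Mrpl35 (0.14 ± 0.06), Mrpl24 (-0.18 ± 0.09), Mrps34 (0.16 ± 0.08) and Mrps24 (0.22 ± 0.11) followed, with adjusted p of 0.435 to 0.469. Mrpl24 held 41.6 to 65.3 CPM in saline and 38.7 to 45.1 CPM in PSD-95i, and its saline spread was the wider (SD 9.21 against 2.52 CPM). Its highest saline libraries were replicates 2 and 3, at 65.3 and 60.4 CPM, and the other 6 held 41.6 to 45.1 CPM. Without these 2 libraries Mrpl24 was at -0.03 ± 0.07 (adjusted p = 1), and 1 member was higher and 0 lower at an unadjusted p under 0.05. Of genes called in PICK1i, Mrpl15 was at 0.06 ± 0.07 in PSD-95i, Mrpl41 at 0.10 ± 0.08, Mrps18c at 0.07 ± 0.10 and Mrps36 at -0.02 ± 0.11. A p that misses the threshold does not show that a gene was unaffected.

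The direct comparison of PSD-95i with PICK1i tests the difference between the compounds, given at their own doses of 25 and 56 mg/kg. By edgeR 0 of 77 members passed (1 higher and 37 lower in PSD-95i at an unadjusted p under 0.05), and 0% of all genes passed (11.9% higher and 12.3% lower at an unadjusted p under 0.05). DESeq2 gave 12 lower members (6.55% lower of the 9896 genes to which it gave an adjusted p) and limma-voom 3 (0.785% of 15667 genes). The members' median was -0.15, with 72 of 77 below 0, against -0.01 over all genes. The smallest adjusted p of the members, 0.0513, was also the smallest over all genes tested, and genes outside the members shared it. Among the members it belonged to 3, Mrpl34 (-0.34 ± 0.08), Mrps36 (-0.44 ± 0.11) and Mrpl51 (-0.25 ± 0.07). Mrpl34 held 15.3 to 19.8 CPM in PSD-95i and 19.2 to 26 CPM in PICK1i, with 16.5 to 21.9 CPM in saline between them. Only the ends of the PSD-95i and PICK1i groups overlapped. Mrpl42 (-0.27 ± 0.07), Mrpl32 (-0.28 ± 0.08), Mrpl15 (-0.23 ± 0.07), Mrps18c (-0.34 ± 0.10) and Mrpl21 (-0.33 ± 0.10) had adjusted p of 0.0515 to 0.0621, and Mrps6 (-0.19 ± 0.06) and Mrpl41 (-0.24 ± 0.08) had 0.0731 and 0.0732. With 1 library left out the edgeR count of lower members was 9 without PICK1i replicate 3 (2.25% of all genes lower), 10 without replicate 4 (3.88%), 19 without replicate 7 (6.57%) and 4 without replicate 8 (0.99%). Without PICK1i replicates 1, 2, 5 and 6 it was 0 (1 higher and 2 lower at an unadjusted p under 0.05), and the median was -0.04. Without saline replicates 2 and 3, which enter only through the spread, the scaling and the set of genes tested, it was 10 (3.5% of all genes lower).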

How the data were processed

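The authors deposited estimated counts for genes and for transcripts. Per the labels' protocols, reads were 52-base pairs from TruSeq Stranded mRNA libraries. The submitters' processing notes list Salmon, STAR, GRCm38 and bcl2fastq 2.20.0. Strand use is not given in the sources used here, nor are the annotation and the STAR and Salmon versions. Whole values (within 0.001) made up 94.35% of the gene table. GENCODE M21 held 45143 of its 45706 identifiers and supplied positions, lengths and overlaps. Groups and replicate numbers come from the labels.

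Estimated counts were rounded. Genes kept by filterByExpr (minimum count 10, 15667 genes) were scaled by TMM and tested two-sided with edgeR 4.0.16 (quasi-likelihood F, R 4.3.3) in 1 fit to all 24 libraries with 21 residual degrees of freedom, with Benjamini and Hochberg adjustment over all genes tested and a threshold of 0.05. The biological coefficient of variation was 14.4%. Standard errors come from the quasi-likelihood F, and log2 CPM used a prior count of 2. Levels per length are transcript counts divided by M21 length. Replicates were checked for duplicates (84 pairs, 0 identical). The procedure was tested on simulated counts, drawn independently for each gene and library. They held no length tilt or other deviation shared by the genes of a library, so this test does not cover such deviations.

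The members and lists were chosen with earlier results of these data known, so no list gives independent support. Members named were the 20 with the smallest p in PICK1i against saline, the 10 in each other comparison, the 5 highest and 5 lowest levels per length, the S18 paralogues, stalk and exit tunnel genes, and members below 0, the genes most like Mrpl15, back-to-back neighbours of the first 20, and of each list up to 4 genes. Gga3, Mrps33, Mrpl48, Mrps31 and genes with shared exons were named after their values were seen. Each result was recomputed with RLE size factors, a minimum count of 50, no filter, DESeq2 1.42.0, limma-voom (limma 3.58.1), a replicate block, neighbouring sample numbers (1 and 2, 3 and 4 and so on) as a random block, a fit of the 2 groups compared, 2 surrogate variables (sva 3.50.0) and leaving out each library. Leaving out saline replicates 2 and 3, PICK1i replicates 1, 2, 5 and 6 or all 6, length tilt as a covariate and the offset for length and GC content (splines with 4 degrees of freedom) were chosen after seeing the data.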

Additional observations from a re-analysis of the deposited data

Results flagged for a closer look

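Among 141 groups of 8 libraries checked for a library far from the others, 5 held one, where chance flags about 1 in 20 groups. Mrps18c stood at 17.4 CPM in PSD-95i replicate 6, against 10.5 to 13.3 CPM in the other PSD-95i libraries. Mrpl1 stood at 27.9 CPM in PICK1i replicate 5, against 19.5 to 23 CPM in the others. Mrps35 stood at 16.5 CPM in PICK1i replicate 1, against 11.8 to 13.7 CPM. Saline replicate 3 was apart in Mrpl35, lowest at 24.6 CPM against 30.1 to 34.9 CPM, and in Mrpl53, highest at 4.02 CPM against 0.935 to 1.16 CPM. Pituitary hormone genes were abundant in that library, and its part in these values was not tested.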

How the results depend on the processing

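For PICK1i against saline, the 18 called members became 10 with no filter (1.93% of all genes higher), 11 by limma-voom (4.01%), 2 with neighbouring sample numbers as a random block (1.27%), 1 with 2 surrogate variables (0.613%) and 0 when only the 2 groups were fitted, where 36 were higher at an unadjusted p under 0.05. The count was 0 without saline replicates 2 and 3, without PICK1i replicates 1, 2, 5 and 6, without all 6, and with length tilt as a covariate. It was 18 with RLE size factors, 17 with the stricter filter and 21 by DESeq2. With 1 library left out it ran from 3 to 32. The median of 0.17 ran from 0.15 to 0.2 with 1 library left out, and was 0.07 without the 4 PICK1i libraries, 0.05 without all 6 and 0.09 with length tilt. For PSD-95i against saline the count was 0 in every alternative, and the median was 0.01 to 0.04 with 1 library left out. For PSD-95i against PICK1i the count of 0 became 8 lower with the stricter filter (2.44% of all genes lower) and 12 by DESeq2 (6.55% of the 9896 genes with an adjusted p). It was 3 by limma-voom (0.785%), 13 with 2 surrogate variables (4.7%) and 10 without saline replicates 2 and 3 (3.5%). With 1 library left out it was 0 to 19, and the median ran from -0.19 to -0.13.

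Libraries of 1 number did not pair across groups (24 pairs, correlation of deviations -0.194 to 0.15, median 0.0136), and 1 library correlated best with its own number. The replicate block gave 15 members for PICK1i against saline and 0 in each other comparison.

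In PICK1i against saline 14 of 77 members changed sign without PICK1i replicates 1, 2, 5 and 6, 17 without all 6, 12 with length tilt and 7 with the offset, and 0 of these were called. Among the members chosen for naming, they were, without the 4 PICK1i libraries, Mrpl22 (-0.11), Mrpl24 (-0.1), Mrps21 (-0.08), Mrpl52 (-0.03), Mrps16 (-0.12) and Mrpl47 (-0.11). Without all 6 libraries they were Mrps18a (-0.02), Mrpl22 (-0.05), Mrpl45 (-0.03), Mrpl52 (-0.03), Mrps16 (-0.08) and Mrpl47 (-0.11). With length tilt they were Mrpl22 (-0.12), Mrpl24 (-0.14), Mrps21 (-0.07), Mrps16 (-0.12) and Mrpl47 (-0.07), and with the offset Mrpl22 (-0.0), Mrpl1 (0.0), Mrpl3 (0.01) and Mrpl17 (0.15). Mrpl17 was at 0.02 with 2 surrogate variables, 0.01 without saline replicates 2 and 3, and 0.01 and 0.02 without saline replicate 2 or 7 (-0.05 to 0.02 with 1 library left out), and Mrpl24 was at -0.0 without saline replicate 5 (-0.0 to 0.1 with 1 library left out). The cause was not tested. Counts limit the lowest members most, and Mrpl53, at about 1 CPM, had a standard error of 0.35.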
